A study of Mus musculus with 6 samples.

Results

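The type I interferon response was examined in primary cultures of mouse ventral midbrain, through 37 genes named for their part in it: interferon beta, the sensors of foreign RNA, the transcription factors of the response and the genes they switch on. The 37 genes were chosen by name, as rows of the count tables, and all 37 were found among 42396 rows. The knockdown consists of 3 libraries from cultures infected with a lentivirus that carries a hairpin against circRmst (pll3.7-shRmstI), a circular RNA of the gene Rmst. It was set against a control of 3 libraries from cultures infected with the same kind of virus carrying a scramble hairpin (pll3.7-Scr2). The cultures were made from embryos (wild type, embryonic day 14), plated at 150000 cells per well, received the virus on that day at a multiplicity of infection of 5, and were harvested after 3 days in vitro. Both groups thus carry a vector and a hairpin and no uninfected culture was analysed here, so these libraries show the level of the response after infection and how it differs between the hairpins, not what infection itself did. circRmst itself was not analysed here, because counts per gene do not separate a circular RNA from its host gene, so the depth of the knockdown is not checked by these values. The series asks what lowering circRmst does to gene expression in these neurons.

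Type I interferons are secreted proteins that cells make when sensors in the cytosol or endosomes meet viral RNA or DNA. They bind a receptor of the subunits Ifnar1 and Ifnar2, whose kinases Jak1 and Tyk2 activate factors of the STAT family. Stat2 and Irf9 are part of a complex that binds the interferon-stimulated response element in the promoters of the induced genes, many of which block viral entry, translation or replication. Short hairpin RNAs and viral vectors are known as possible triggers of this pathway.

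The counts summed to between 35256611 and 43646521 per library in the knockdown and between 27248934 and 41982557 in the control. A count of 3, the limit that a count of 0 allows, corresponds to between 0.0689 and 0.0870 CPM (library-scaled counts, with TMM factors) in knockdown libraries and between 0.0732 and 0.108 CPM in control libraries. Such limits cover counting error alone. The samples are labelled as dopamine neurons, and all 10 dopamine neuron markers examined had counts in the tables, but so did all 7 markers of astrocytes and radial glia and all 6 of the oligodendrocyte lineage, so the cultures held other cells too. In such bulk RNA, fewer cells of a type and less RNA per cell cannot be told apart.

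Most of the 37 genes were at low levels in both groups at harvest. All libraries are from 3 days in vitro, so earlier levels are not shown. Interferon beta itself was not detected: Ifnb1 (chromosome 4 from 88522025 to 88522794, GRCm38) had 0 counts in every one of the 6 libraries, which allows at most 0.0131 CPM over all libraries together. Of 19 other interferon genes (the alpha, epsilon, kappa and zeta genes of type I, interferon gamma and the lambda genes), 14 had 0 counts throughout, and the other 5 had 8 counts in all, with no more than 2 in a library. Length-adjusted levels (FPKM, the authors' fragments per kilobase scaled to library depth) had a median of 0.117 over the 37 genes, against 1.59 over 21773 protein-coding genes. A mean of at least 1 FPKM was reached by 5 of the 37 genes (13.5%), where 54.1% of protein-coding genes reached it. A further 15 lay between 0.1 and 1 FPKM, and 17 lay under 0.1 FPKM.

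**Figure D1:**
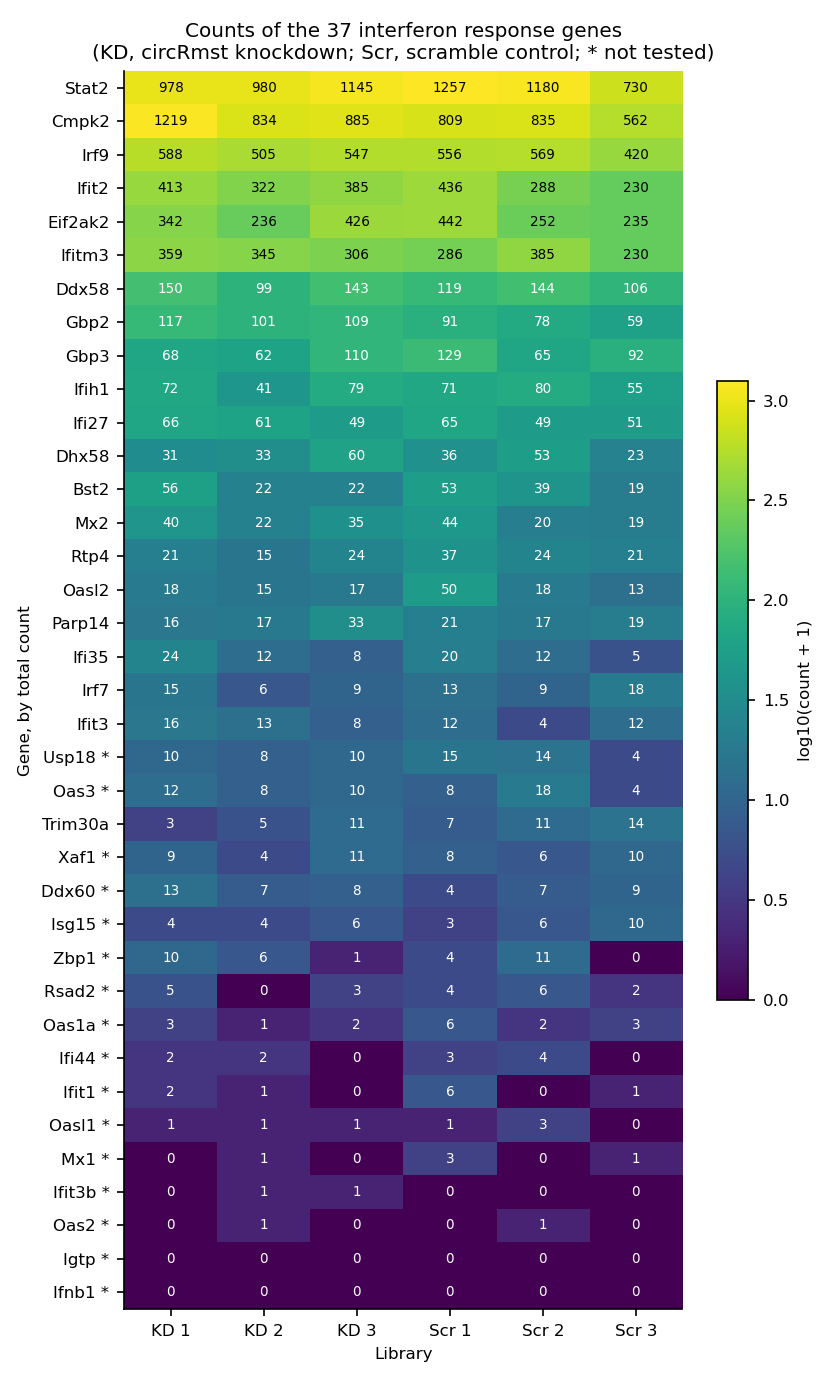
Deposited counts of the 37 genes (rows, ordered by total count) in 3 knockdown and 3 control libraries (columns), with colour on a log10(count + 1) scale; an asterisk marks the 16 genes that did not pass the filter on low counts. The upper rows hold up to 1257 counts in a library, while Ifnb1 and Igtp are at 0 in every library.

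Several genes of the response had few counts in every library. Ifit1, which encodes a protein that binds viral RNA ends and blocks their translation, had 2, 1 and 0 counts in the knockdown libraries and 6, 0 and 1 in the control libraries. Isg15, which encodes the ubiquitin-like modifier of the response, had 4, 4 and 6 counts in the knockdown and 3, 6 and 10 in the control. Rsad2, which encodes the antiviral enzyme viperin, had 5, 0 and 3 counts in the knockdown and 4, 6 and 2 in the control. The counts of these genes overlapped between the groups, and none exceeded 10. Mx1, the dynamin-like GTPase known for its action against influenza virus, had 0, 1 and 0 counts in the knockdown and 3, 0 and 1 in the control. The synthetase gene Oas2 had 1 count in a single library of each group, and the paralogue of Ifit3, Ifit3b, had 1 count in knockdown replicates 2 and 3 and 0 in the control. Of the other low genes, Oas1a and Oasl1, from the family of enzymes that make the activator of RNase L or relatives of them, had at most 6 counts in a library, and Ifi44 had at most 4. Oas3, a further synthetase gene, had 12, 8 and 10 counts in the knockdown and 8, 18 and 4 in the control. Usp18, whose product removes Isg15 from proteins and dampens the receptor, had 10, 8 and 10 counts in the knockdown and 15, 14 and 4 in the control. Xaf1, a gene linked to cell death, had 9, 4 and 11 counts in the knockdown and 8, 6 and 10 in the control. None of these genes had separate groups. In 10 of the 37 genes no library held as many as 10 counts. In the annotation Ifit1 and Ifit3b overlap Ifit1bl1, Isg15 overlaps Gm46878, and Usp18 overlaps Gm44148. Whether overlap lowered their counts was not tested. Over all 6 libraries their levels averaged 0.0179 FPKM for Ifit1, 0.0123 for Ifit3b, 0.152 for Isg15 and 0.0841 for Usp18.

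Levels differed within families. Ifit2 (chromosome 19 from 34550550 to 34576534), which lies next to the other Ifit genes and encodes a related RNA-binding protein, stood at 1.41, 1.47 and 1.32 FPKM in the knockdown and 1.52, 1.07 and 1.28 FPKM in the control. Ifit3, which encodes a partner of Ifit1, averaged 0.128 ± 0.0478 FPKM in the knockdown and 0.105 ± 0.0435 FPKM in the control (SD, n = 3 each). The Ifit2 level was thus above that of each other Ifit gene in every library. A similar contrast held for the neighbours Cmpk2 and Rsad2 on chromosome 12, which lie side by side. Cmpk2 (from 26469117 to 26479837), which encodes a mitochondrial nucleotide kinase, had 5.16, 4.62 and 3.74 FPKM in the knockdown and 3.53, 3.77 and 3.56 FPKM in the control. Rsad2 averaged 0.0165 ± 0.0146 FPKM in the knockdown and 0.0114 ± 0.0040 FPKM in the control (SD, n = 3 each). No other annotated gene overlaps Ifit2 or Cmpk2, and none of the 100-base stretches of their annotated transcripts occurs in a transcript of another gene.

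The highest levels belonged to Ifitm3, Cmpk2, the factor genes Stat2 and Irf9, and Ifit2. Ifitm3 (chromosome 7 from 141009590 to 141010744), whose protein blocks the fusion of viruses with endosomes, was the most abundant per length, at 9.89, 13.8 and 9.57 FPKM in the knockdown and 9.47, 13.01 and 11.1 FPKM in the control. Cmpk2 followed. Stat2 (chromosome 10 from 128270498 to 128292853) was at 2.67, 3.45 and 2.97 FPKM in the knockdown and 3.41, 3.40 and 2.82 FPKM in the control. Its partner Irf9 (chromosome 14 from 55603985 to 55610030) was at 2.37, 2.77 and 2.33 FPKM in the knockdown and 2.51, 2.81 and 2.99 FPKM in the control. Ifitm3 stood above Cmpk2, Cmpk2 above Stat2, and Irf9 above Ifit2 in each of the 6 libraries. Stat2 stood above Irf9 in 5 of the 6, and control replicate 3 had the opposite order. Irf7, the factor that amplifies interferon production and is itself induced by interferon, averaged 0.0791 ± 0.0123 FPKM in the knockdown and 0.115 ± 0.105 FPKM in the control (SD, n = 3 each).

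The sensors of RNA were present at low levels. Eif2ak2, which encodes the kinase PKR that halts translation on binding double-stranded RNA, was the highest of them, at 0.944, 0.866 and 1.12 FPKM in the knockdown and 1.19, 0.761 and 0.851 FPKM in the control. Ddx58, which encodes RIG-I, averaged 0.340 ± 0.0105 FPKM in the knockdown and 0.360 ± 0.0692 FPKM in the control. Ifih1, which encodes the sensor of long double-stranded RNA, averaged 0.158 ± 0.0280 FPKM in the knockdown and 0.187 ± 0.0348 FPKM in the control. Each of these 3 sensors had at least 41 counts in every library. Dhx58, the regulatory helicase of the same family, averaged 0.156 ± 0.0707 FPKM in the knockdown and 0.170 ± 0.0402 FPKM in the control (SD, n = 3 each for these genes). Zbp1, which senses nucleic acids in the Z form, and the helicase gene Ddx60 had no more than 13 counts in any library.

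Among the 10 genes with the highest FPKM were also Ifi27, Bst2, Gbp2 and Gbp3. Ifi27, a small membrane protein gene induced by interferon, was at 0.875, 1.13 and 0.574 FPKM in the knockdown and 0.817, 0.7996 and 1.15 FPKM in the control. It overlaps Ifi27l2a in the annotation. Bst2, which encodes tetherin, a protein that holds budding viruses at the cell surface, was at 1.07, 0.599 and 0.375 FPKM in the knockdown and 1.04, 0.892 and 0.494 FPKM in the control. In Bst2 the highest library of each group was replicate 1 and the groups overlapped.

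The promoters of many of these genes carry the core of the interferon-stimulated response element. RefSeq promoter sequences (GRCm38.p6) were found for 28 of the 37 genes, the others being Oas2, Mx1, Usp18, Parp14, Mx2, Rtp4, Ifi27, Zbp1 and Dhx58, and the 250 bases before each start were searched on both strands for its core, GAAA followed by any 2 bases and GAAA again (TTTC, any 2 bases and TTTC when read on the other strand). A match stood before a start of 14 of the 28 genes (50%), against 3.46% of the 27025 genes in that table, and counted by promoter 2.98% of all 32851 held a match. Matches can overlap, as in Isg15 and Bst2. The windows below show the element, in capitals, with 20 bases on either side, written 5′ to 3′ on the strand of the gene. They are given for the 3 most abundant of the 14 genes and for 3 with no more than 10 counts in any library. The last 3 were picked after their values were seen. They lie at chr10:128270256-128270305 for Stat2 (forward strand), chr8:71537567-71537622 for Bst2 (reverse), chr3:142620584-142620633 for Gbp2 (forward), chr19:34640765-34640833 for Ifit1 (forward), chr4:156200855-156200916 for Isg15 (reverse) and chr12:26456543-26456592 for Rsad2 (reverse).
Stat2: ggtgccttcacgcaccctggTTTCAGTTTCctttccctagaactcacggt
Bst2: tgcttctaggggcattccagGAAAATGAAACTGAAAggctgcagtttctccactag
Gbp2: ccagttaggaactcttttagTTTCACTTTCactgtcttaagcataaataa
Ifit1: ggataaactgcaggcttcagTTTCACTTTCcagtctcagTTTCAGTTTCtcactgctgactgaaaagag
Isg15: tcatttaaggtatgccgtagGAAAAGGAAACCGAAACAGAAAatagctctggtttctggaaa
Rsad2: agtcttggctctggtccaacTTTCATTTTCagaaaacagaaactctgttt

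The genes with a match were not the most abundant ones. Over all 6 libraries the 14 genes with a match ranged from 0.0123 to 3.12 FPKM with a median of 0.0749 FPKM, and only Stat2 among them reached 1 FPKM. The 14 genes of the table without a match ranged from 0 to 11.1 FPKM with a median of 0.159 FPKM, and 4 of them (Ifitm3, Cmpk2, Irf9 and Ifit2) reached 1 FPKM. Isg15 and Ifit1, which hold 3 and 2 matches, averaged 0.152 and 0.0179 FPKM over all 6 libraries. Isg15 thus lay above the median of the 37 genes (0.117 FPKM) and Ifit1 below it. Gbp2 with 1 match was at 0.701 ± 0.103 FPKM in the knockdown and 0.524 ± 0.0327 FPKM in the control (SD, n = 3 each). The windows of Ifit3 and Ifit3b are the same in all 84 bases. Of the 100-base stretches of Ifit3 transcripts 31.7% also occur in transcripts of Ifit3b, so the split of reads between this pair is uncertain, as it is for Oas1a, which shares 40.9% of its stretches with Oas1g. A match is a run of letters and not a measured site, and the absence of a match speaks of these 250 bases alone. For 21 of the 32 starts of these genes, the bases after the start were found in an annotated transcript of the gene. For the starts of Stat2, Bst2, Ifit3, Ifit3b and Oas1a they were not. The bases searched for Ifit3 and Ifit3b lay inside the span given for the gene.

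**Figure D2:**
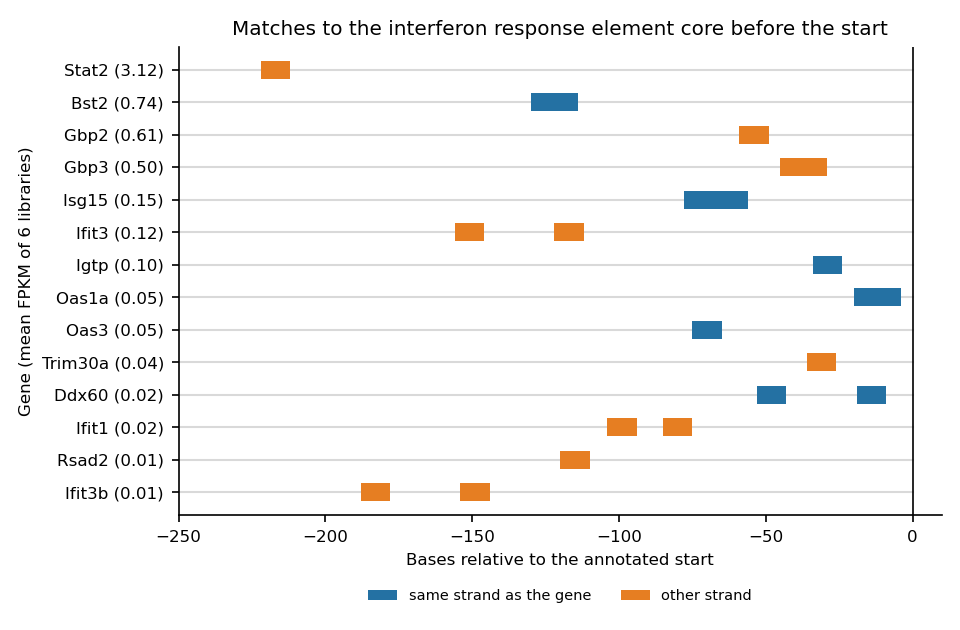
Positions of the matches in the 250 bases before the annotated start (horizontal axis, bases) for the 14 genes that hold one, ordered by mean FPKM (in brackets), with blue for the strand of the gene and orange for the other strand. The matches lie between 222 bases (Stat2) and 5 bases (Oas1a) before the start.

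The receptor and the signalling genes upstream of the response were expressed well above its ligands and above most of its targets. The receptor subunit gene Ifnar1 averaged 13.1 ± 1.15 FPKM in the knockdown and 12.3 ± 0.550 FPKM in the control, and Ifnar2 averaged 3.35 ± 0.249 FPKM in the knockdown and 3.37 ± 0.587 FPKM in the control (SD, n = 3 for all means in this paragraph). The kinase gene Jak1 was at 20.6 ± 2.70 FPKM in the knockdown and 19.7 ± 0.820 FPKM in the control, the highest of the 9 receptor and kinase genes. Its partner Tyk2 was lower, at 1.35 ± 0.0662 FPKM in the knockdown and 1.42 ± 0.114 FPKM in the control. Among the STAT and IRF genes Stat3, which serves other cytokines too, had the highest level, at 8.35 ± 0.296 FPKM in the knockdown and 8.38 ± 0.487 FPKM in the control. In the list of sensing genes the highest was Adar, the RNA editor that keeps a cell's own double-stranded RNA from being sensed, at 18.1 ± 1.38 FPKM in the knockdown and 19.0 ± 0.857 FPKM in the control. The adaptor gene Mavs, through which RIG-I signals, was at 2.04 ± 0.301 FPKM in the knockdown and 2.05 ± 0.250 FPKM in the control. The DNA-sensing branch was lower: Cgas averaged 0.207 ± 0.0368 FPKM in the knockdown and 0.209 ± 0.0060 FPKM in the control, and Sting1 had 21 counts over all 6 libraries. Ptpn11, a phosphatase gene, led the list of regulators, at 21.2 ± 0.730 FPKM in the knockdown and 19.8 ± 0.279 FPKM in the control. B2m, which encodes the invariant chain of class I antigen-presenting molecules, had the highest chromosome row of the 33 other induced genes, at 8.83 ± 1.15 FPKM in the knockdown and 10.04 ± 1.52 FPKM in the control.

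**Figure D3:**
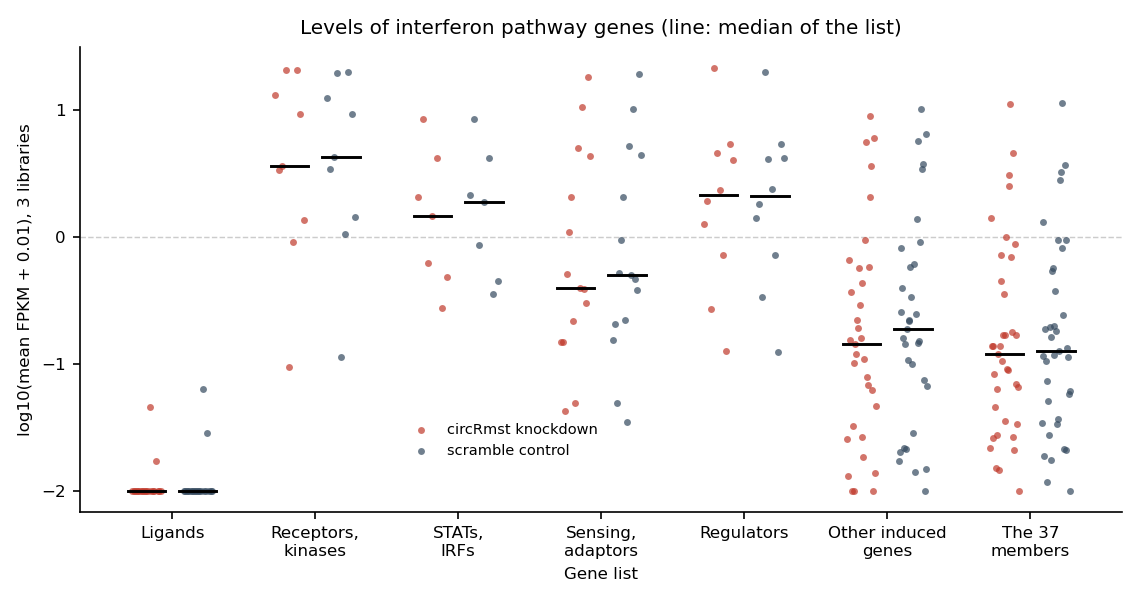
Mean FPKM of each gene in 3 knockdown libraries (red, left) and 3 control libraries (grey, right), on a log10(FPKM + 0.01) axis, by step of the pathway; the black line is the median of a list. Over all 6 libraries the median was 0 FPKM for ligands, 3.88 for receptors and kinases, 1.66 for STAT and IRF genes, 0.437 for sensing genes and adaptors, 2.10 for regulators, 0.155 for other induced genes and 0.117 for the 37 genes.

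Knockdown of circRmst was then set against the scramble control. No gene of the response passed the test, in either direction. Of the 37 genes, 21 passed the filter on low counts and 16 did not, and a gene can pass that filter through its higher group alone, so counts and medians over the 21 describe them and nothing more. With edgeR's quasi-likelihood test, 0 of the 21 had an adjusted p under 0.05, where 0% of 17439 tested genes did. DESeq2, which took in 35 of the 37 genes, likewise called 0 of them, where it called 1 of 28463 genes. It was run on every gene with a count. Some of the 35, such as Oas2 and Ifit3b with 2 counts each over all libraries, had too few counts to pass. At an unadjusted p under 0.05 there were 0 of 21 in edgeR, where 1.1% of all tested genes lay under it. In DESeq2 there were 0 of 35, where 0.615% of all genes lay under it. The fitted log2 fold change, knockdown over control, lay above 0 in 9 of the 21 genes and below 0 in 12, where 51.9% of all genes lay below 0. Its median was -0.06 over the 21 genes and -0.0060 over all tested genes, and it ranged from -0.94 in Trim30a to 0.38 in Gbp2. Over the 12 of the 21 genes that overlap no other annotated gene, a choice made after the data were seen, the median was 0.04.

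**Figure D4:**
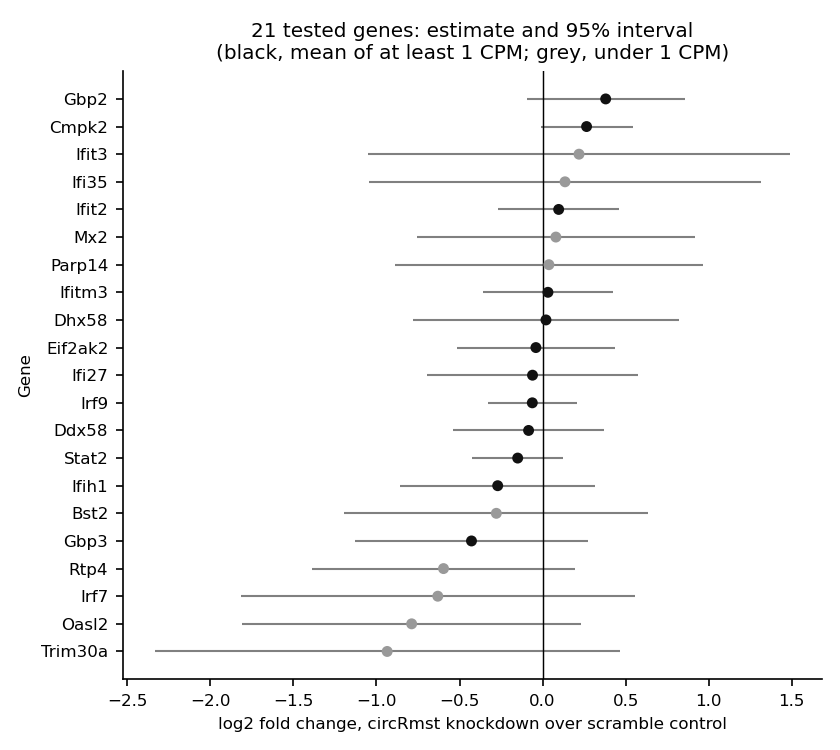
Log2 fold change of the 21 tested genes, circRmst knockdown over scramble control (horizontal axis), with 95% intervals as lines, black points for genes averaging 1 CPM or more and grey for the rest. Every interval includes 0, and the widest belong to Trim30a, Ifit3, Irf7 and Ifi35, all under 1 CPM.

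The libraries limit how small a difference could be seen. On the log2 scale, 95% intervals reached 0.47 to either side of the estimate (median) in the 12 genes averaging 1 CPM or more, and 1.02 in the 9 rarer ones. In 11 of those 12, all but Gbp3, the interval kept inside a 2-fold difference both ways. Of the 9 rarer genes, Mx2 and Parp14 also kept inside these bounds. The intervals of the other 7 reached beyond them on at least one side.

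In 4 of the 21 genes every knockdown library lay on the same side of every control library, as in 5.2% of all tested genes. Cmpk2 and Gbp2 lay above the control, where 2.28% of all genes did, and Oasl2 and Rtp4 lay below it, where 2.92% did. These counts are in CPM. In FPKM the groups of Cmpk2, Oasl2 and Rtp4 overlapped, and those of Gbp2 did not. Cmpk2 had the smallest p of the 21 genes. It stood at 28.0, 24.2 and 21.14 CPM in the knockdown and 19.7, 21.10 and 20.2 CPM in the control. The lowest knockdown library was thus level with the highest control library, and knockdown replicate 1 was the highest of all. The fitted log2 fold change of Cmpk2 was 0.26 ± 0.13 (SE; 95% interval -0.01 to 0.54), with an edgeR p that was 0.0591 before and 1.00 after adjustment. Without knockdown replicate 1 it was 0.15.

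Gbp2 (chromosome 3 from 142620663 to 142638008) encodes a guanylate-binding protein that attacks the vacuoles of intracellular pathogens. It had 2.69, 2.93 and 2.60 CPM in the knockdown and 2.22, 1.97 and 2.12 CPM in the control, all 3 knockdown libraries above all 3 control libraries. Its log2 fold change was 0.38 ± 0.22 (SE; 95% interval -0.10 to 0.86), with an unadjusted edgeR p of 0.106. With any 1 library left out the fold change lay between 0.33 and 0.43. The neighbouring Gbp3, a gene of the same family, did not share this direction. It had 1.56, 1.80 and 2.63 CPM in the knockdown and 3.15, 1.64 and 3.31 CPM in the control, with overlapping groups and a log2 fold change of -0.43 ± 0.32 (SE, unadjusted edgeR p of 0.204).

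Oasl2, an interferon-induced relative of the oligoadenylate synthetases, had 0.413, 0.435 and 0.406 CPM in the knockdown and 1.22, 0.455 and 0.468 CPM in the control. Control replicate 1 stood far above the other 5 libraries, with 50 counts against 13 to 18. The log2 fold change of Oasl2 was -0.79 ± 0.46 (SE, unadjusted edgeR p of 0.115) and was -0.14 without control replicate 1. Rtp4, which encodes a chaperone of membrane receptors that interferon induces, had 0.482, 0.435 and 0.573 CPM in the knockdown and 0.903, 0.606 and 0.755 CPM in the control, a log2 fold change of -0.60 ± 0.36 (SE, unadjusted edgeR p of 0.124). Between 15 and 37 counts per library stood behind those values, and Rtp4 overlaps the gene Masp1. Trim30a, a regulator of inflammatory signalling, had 3, 5 and 11 counts in the knockdown and 7, 11 and 14 in the control. Its log2 fold change was -0.94 ± 0.64 (SE, unadjusted edgeR p of 0.163), with a range from -1.52 without knockdown replicate 3 to -0.48 without control replicate 3. After adjustment over all genes edgeR's p was 1.00 for Gbp2, Gbp3, Oasl2, Rtp4 and Trim30a.

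**Figure D5:**
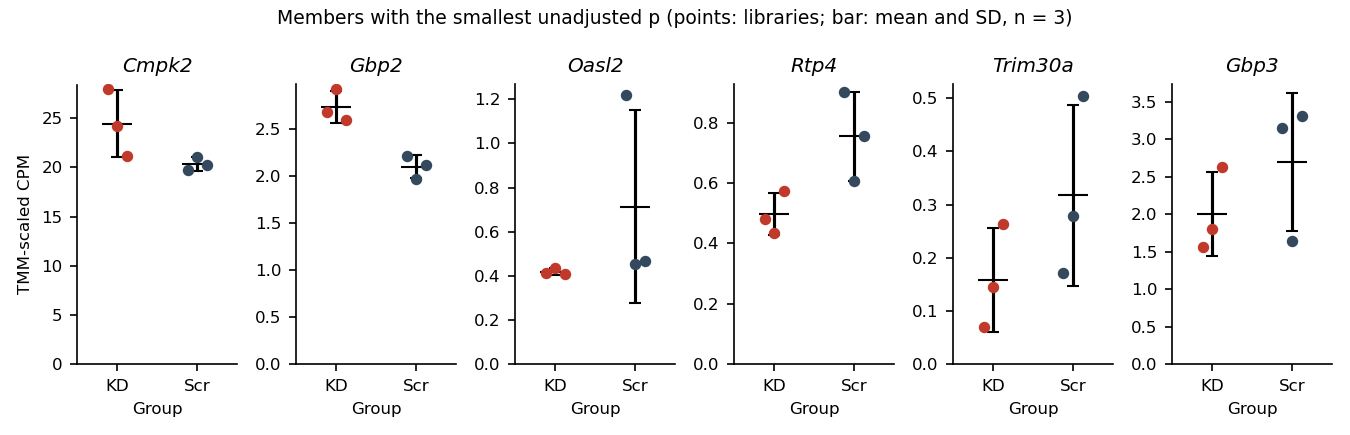
TMM-scaled CPM per library (points) with mean and SD (bars, n = 3) for the 6 tested genes with the smallest unadjusted p, knockdown on the left and control on the right, each panel on its own axis from 0. Cmpk2 and Gbp2 lie higher and Oasl2 and Rtp4 lower in the knockdown with no overlap, and the Oasl2 control mean rests on a library at 1.22 CPM.

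None of the factors and sensors of the response passed the test. Stat2 averaged 26.1 ± 3.18 CPM in the knockdown and 28.9 ± 2.34 CPM in the control (SD, n = 3 each), a log2 fold change of -0.15 ± 0.12 (SE). Irf9 averaged 13.7 ± 0.817 CPM in the knockdown and 14.3 ± 0.772 CPM in the control, a log2 fold change of -0.06 ± 0.12. The intervals of these genes, from -0.42 to 0.13 for Stat2 and from -0.33 to 0.21 for Irf9, were among the narrowest. Irf7, with 6 to 18 counts per library, had -0.63 ± 0.54. Among the sensors the log2 fold change was -0.04 ± 0.22 for Eif2ak2, -0.08 ± 0.21 for Ddx58, -0.27 ± 0.27 for Ifih1 and 0.02 ± 0.36 for Dhx58 (SE for each). The groups overlapped in every one of these factors and sensors. Of the remaining tested genes, Ifitm3 had 0.03 ± 0.18, Ifit2 0.10 ± 0.17, Ifi27 -0.06 ± 0.29 and Bst2 -0.28 ± 0.42 as log2 fold changes with SE. The GTPase gene Mx2 had 0.08 ± 0.38, and Parp14, which encodes an ADP-ribosyltransferase, had 0.04 ± 0.42. Ifit3 had 0.22 ± 0.58, and Ifi35, whose protein pairs with the product of Nmi, had 0.14 ± 0.54.

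The 16 untested genes were also summed. They summed to 71, 45 and 53 counts in the knockdown libraries and 65, 78 and 44 in the control libraries. Scaled to depth that was 1.63, 1.31 and 1.27 CPM in the knockdown and 1.59, 1.97 and 1.58 CPM in the control, so the groups overlapped. The sum of the 21 tested genes was 105.9, 108.7 and 105.4 CPM in the knockdown and 111.1, 104.4 and 105.5 CPM in the control. The mean deviation of the 21 genes from their 6-library means was -0.05, -0.11 and -0.04 log2 units in the knockdown and 0.19, -0.13 and 0.15 in the control. Control replicates 1 and 3 were the highest, and control replicate 2 was the lowest of all 6 libraries. Microglia, the resident immune cells of brain, respond to interferon, and their markers also differed between libraries. Of 15 microglia markers 11 were tested, 2 above and 9 below the control, and 0 passed. In edgeR 2 of them, Cd68 and Tmem119, had an unadjusted p under 0.05, and both lay below the control without overlap. Over all tested genes 51.9% lay below the control, 1.1% had such a p and 2.92% lay below without overlap. The 15 markers summed to between 33.9 and 34.4 CPM in the knockdown and between 34.6 and 43.3 CPM in the control, without overlap, and control replicates 1 and 3 were again the highest. The markers Aif1 and Trem2 were at 0 counts in every library, though their rows averaged 0.0657 and 1.73 FPKM. Replicate 3 was likewise the highest control and replicate 2 the lowest in oligodendrocyte lineage, astrocyte and radial glia, and dopamine neuron markers. In the endothelial, meningeal and mural, and neuron markers replicate 2 was the highest control. The astrocyte and radial glia markers summed to 1280, 1192 and 1465 CPM in the knockdown and 1394, 1120 and 1415 CPM in the control. The dopamine neuron markers summed to 519, 543 and 617 CPM in the knockdown and 541, 539 and 635 CPM in the control. The 6 oligodendrocyte lineage markers summed to 326, 262 and 336 CPM in the knockdown and 414, 267 and 422 CPM in the control. All 6 lay below the control (median log2 fold change -0.30), 1 of them, Sox10, had an unadjusted edgeR p under 0.05, and 0 passed. The part of any cell type in the values of the 37 genes was not tested.

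No other gene of the pathway passed. Of 93 genes in the lists of ligands, receptors and kinases, STAT and IRF genes, sensing, regulators and other induced genes, 54 were tested, of which 17 lay above and 37 below the control (median of the log2 fold changes -0.07). Over all tested genes 51.9% lay below it. The groups did not overlap in Ifngr1, Irf1, Tlr7, Ikbke, Samhd1 and Lgals3bp, all lower in the knockdown, and in Ptpn11, which was higher. Of all tested genes 5.2% had no overlap. By list, 4 of 9 tested receptor and kinase genes, 1 of 7 STAT and IRF genes, 4 of 13 sensing genes, 3 of 9 regulators and 5 of 16 other induced genes lay above the control, and the remainder lay below. None of the 54 had an unadjusted p under 0.05 in edgeR, where 1.1% of all tested genes did. The smallest belonged to Nmi, whose product binds STAT proteins, with 17, 5 and 8 counts in the knockdown and 36, 15 and 10 in the control, a log2 fold change of -1.14 ± 0.54 (SE), with an edgeR p that was 0.0578 before and 1.00 after adjustment. Per list, the smallest p belonged to Ifngr1, a receptor subunit for interferon gamma (-0.23 ± 0.13), to Irf1 (-0.41 ± 0.23), to the kinase gene Ikbke (-0.39 ± 0.21) and to the phosphatase gene Ptpn6 (-0.46 ± 0.33), as log2 fold changes with SE. The receptor gene Ifnar1 had 0.05 ± 0.09.

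A count of 0 did not mean the same in every gene. Igtp, an immunity-related GTPase gene (chromosome 11 from 58199556 to 58207592), had 0 counts in all libraries, but the authors' FPKM tables put it at 0.124, 0.0934 and 0.0652 FPKM in the knockdown and 0.126, 0.0311 and 0.165 FPKM in the control. Both kinds of table list a second Igtp row on a sequence outside the chromosomes, with 0 counts as well. Summed over both rows, Igtp averaged 0.269 ± 0.0953 FPKM in the knockdown and 0.410 ± 0.283 FPKM in the control (SD, n = 3 each). Igtp is therefore listed at 0 in the counts and its level there cannot be read as absence, whereas Ifnb1, with a single row, was at 0 in both kinds of table. Among the other pathway genes Psmb8, Psmb9, Tap1, H2-K1, H2-D1 and Ifi47 likewise had 0 counts with FPKM above 0 and 4 rows each. The class I genes H2-K1 and H2-D1 reached a mean of 2.71 and 3.63 FPKM on their chromosome rows.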

How the data were processed

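RNA was sequenced from 6 libraries, 3 per group, with paired reads of 150 bases after depletion of ribosomal RNA and a strand-keeping kit, per the labels' protocols, which name 3 independent cultures without saying which libraries share one, so p-values measure the spread between these libraries. The deposited counts are whole reads or fragments per gene, 1 table per library. The names of the aligner and counter, and the strand setting, were not given in the sources used here, so overlapping genes cannot be kept apart. The deposited FPKM values come in tracking tables of the Cufflinks kind (per the file headers). Cufflinks 2.2.1, bcl2fastq 2.20, DESeq2 and the build GRCm38 (mm10) are named in the submitters' processing notes.

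Counts were tested on the whole table with edgeR 4.0.16 (R 4.3.3): filterByExpr, TMM scaling, group alone as the design, quasi-likelihood test, Benjamini-Hochberg adjustment over 17439 genes and a threshold of 0.05. Levels between genes were compared in FPKM. Alternatives were DESeq2 1.42.0, its size factors, no filter, a block for the replicate number, omission of each library in turn, and limma 3.58.1 on log2(FPKM + 0.1) or log2(FPKM + 1). On this FPKM scale fold changes of low genes are understated. The symbols of 2 pathway genes were matched through RefSeq synonyms. Values are given for the 10 genes with the highest FPKM, the 6 with the smallest p, those with no overlap between groups and Ifnb1, and per pathway list for the highest gene and the one with the smallest p; the other tested genes are given so that all 37 are accounted for. The genes and lists were chosen with earlier results of these data known. No 2 libraries of a group were copies: the chi-square per degree of freedom of each pair was at least 12.8.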

Additional observations from a re-analysis of the deposited data

How the results depend on the processing

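No gene of the response and no other pathway gene passed under any alternative run, and the smallest adjusted p of a tested member was 0.999. Over all genes the count was 11 with no filter on low counts and 1 with DESeq2, against 0. The number of members at an unadjusted p under 0.05 ran from 0 to 1 with a library left out (Cmpk2 without knockdown replicate 3, Gbp3 without control replicate 2), where 2.55% and 1.38% of all genes lay under it in those fits, and was 1 with limma on FPKM and no filter (Trim30a), where 3.99% did. The 4 members without overlap (5.2% of all genes) became 5 to 7 with a library left out (7 without control replicate 1), where 12.3% to 17.3% of all genes had none, 3 with no filter on counts (5.21%), 1 in filtered FPKM (6.45%) and 2 in FPKM with no filter (6.38%). The member in filtered FPKM was Gbp2, and with no filter Trim30a, which was not among the 4, joined it. A filter of 1 CPM in 3 libraries kept 11 members instead of 21. The 5 members at 1 FPKM became 12 at 1 CPM and 9 at 0.5 FPKM, and the 2 members at 0 counts became 6 at no more than 3 counts per library and 1 in FPKM. The median log2 fold change of tested members stayed between -0.15 (DESeq2) and -0.02 (FPKM) except over members with no overlapping gene, where it was 0.04 (added after the data were seen). The members tested also changed, from 21 in the main run to 35 in DESeq2 and 9 in filtered FPKM. These medians therefore mix the set of genes with the method. The untested members had few or no counts, and Igtp is at 0 counts but not in FPKM. Among them Ifit1, Ifit3b, Isg15 and Usp18 overlap another annotated gene. Oas1a and Ifit3b share 40.9% and 27.4% of their transcript stretches with Oas1g and Ifit3. How far depth, overlap or shared stretches limited these counts was not tested.

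The replicate numbers were shared but not shown to pair the libraries: deviations of same-numbered libraries correlated at 0.27, 0.32 and 0.02 over all tested genes, and replicate 3 did not correlate best with its own number. Over the 21 tested members these values were 0.25, 0.18 and 0.25, and each library correlated best with its own number. These values rest on 21 genes, several with few counts, and on deviations from means of 3 libraries. They cannot decide whether the libraries pair. With the replicate block 0 members and 0 genes passed, 258 genes had an unadjusted p under 0.05 against 191, and Dhx58 and Parp14 had log2 fold changes of -0.0064 and -0.018, with the sign turned.

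Signs also turned in log2 FPKM, none past the threshold. There Eif2ak2 was 0.074 and Ifitm3 -0.023 with a pseudocount of 0.1 (with and without the filter), and 0.036 and -0.021 with 1, and without the filter Mx2 was -0.12 and Dhx58 -0.10. With a library left out, 9 of 21 members turned sign and 12 kept it under every alternative. Their log2 fold changes ran from -0.0062 to 0.27 in Ifit2, -0.19 to 0.66 in Ifit3, -0.13 to 0.44 in Mx2, -0.29 to 0.29 in Dhx58, -0.20 to 0.17 in Eif2ak2, -0.10 to 0.17 in Ifitm3, -0.20 to 0.10 in Ifi27, -0.31 to 0.56 in Ifi35 and -0.31 to 0.26 in Parp14. The causes were not tested.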

Other observations

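The rows that are at 0 in every count table but carry FPKM reach beyond the interferon genes. Of 13932 rows with 0 counts in all 6 libraries, 804 had a mean of at least 1 FPKM. Of these 804, 670 have a second row of the same symbol, 156 overlap another gene on the chromosome, and 740 have one or the other. Among the 229 protein-coding genes of that set, 212 have one or the other, and 189 have a second row, against 5.19% of all protein-coding genes on chromosomes. Trex1, a nuclease gene that keeps a cell's own DNA from being sensed, is an example with a single row: it had 0 counts and averaged 4.51 ± 0.618 FPKM in the knockdown and 4.03 ± 1.03 FPKM in the control (SD, n = 3 each). The microglia receptor gene Trem2 had 0 counts and a mean of 1.73 FPKM on its chromosome row. The class I antigen-presenting genes H2-K1 and H2-D1 are both at 0 in the counts, and the FPKM of their chromosome rows ranged from 1.53 to 2.64 in the knockdown and 1.56 to 6.02 in the control for H2-K1, and from 3.14 to 4.13 in the knockdown and 3.09 to 4.12 in the control for H2-D1. The 3 other rows of H2-D1 were higher, at 4.40 to 8.13 FPKM in the knockdown and 6.48 to 10.7 FPKM in the control.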
